A study of Mus musculus with 140 samples.

Results

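Clusters of MEF-only silencers are stretches of mouse DNA in which several neighbouring fragments were listed as silencers in mouse embryonic fibroblasts (MEFs) and none was listed in mouse embryonic stem cells (mESCs). A cluster was a run of 3 or more consecutive autosomal MEF intervals that overlapped no mESC interval, with gaps of at most 5 kb between neighbours and no mESC interval anywhere from the first start to the last end. The members were thus selected on presence in the MEF list and absence from the mESC list, and the authors' fold was not used beyond its part in making the lists. There were 616 such clusters with 1931 member intervals, out of 46331 autosomal MEF-only intervals, 87806 autosomal MEF intervals and 204761 intervals in both lists together.

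The study used Ss-STARR-seq, an assay in which sheared genomic fragments, here inserts of 300 to 400 bp, are recombined into a reporter plasmid and the RNA they give in transfected cells is sequenced beside the plasmid input. The labels describe 64 MEF reporter RNA libraries in 4 output sets, 56 mESC reporter RNA libraries in 3 output sets and 20 input libraries labelled with mESCs as their source. MEFs were grown in DMEM with serum and mESCs in a serum-free 2i/LIF medium, and the labels give no strain, age, sex or genotype for either cell type. Each cell type had 1 list, so no cluster had a replicate check, the libraries could not be checked against cell type markers, and every comparison below is a description without a test. Read counts are not part of the lists, which leaves the depth of each interval unknown. An interval missing from the mESC list may have lain just under the authors' limit there, where every listed fold was above 2.

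Silencers are DNA elements that lower transcription from a promoter, through bound repressor proteins and the corepressor and chromatin-modifying complexes these recruit. On a plasmid a fragment is tested outside its own chromatin, so the assay reads what the sequence does with the proteins of the host cell. Fibroblasts are differentiated mesenchymal cells with high AP-1 and TEAD-YAP activity, whereas mESCs in 2i/LIF hold a pluripotent programme, and the same fragment can therefore meet different factors in the 2 hosts.

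The sequences of 3 clusters are shown first, because they mark the ends of the range: the cluster with the most members, the cluster with the highest median fold and a cluster of the shortest span. Sequences are the forward strand of GRCm38.p6 (mm10) from RefSeq, and capitals mark a match on either strand to 1 of 11 consensus motifs that are spelled out with their counts further on. The cluster with the most members lay at Ctc1, which encodes a telomere replication factor, at chr11:69034982-69043151. It had 6 members over 8170 bp, the first in an intron near the 3 prime end of the gene and the other 5 downstream of it. The 5 members short enough to print follow, and the longest member, of 400 bp, is left out.
Ctc1 chr11:69034982-69035126: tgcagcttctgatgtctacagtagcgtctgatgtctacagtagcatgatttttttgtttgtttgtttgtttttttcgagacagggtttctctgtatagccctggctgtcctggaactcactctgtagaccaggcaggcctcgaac
Ctc1 chr11:69037662-69037711: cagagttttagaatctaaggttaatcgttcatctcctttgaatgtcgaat
Ctc1 chr11:69037812-69037861: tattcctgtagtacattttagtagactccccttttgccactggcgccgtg
Ctc1 chr11:69041652-69041701: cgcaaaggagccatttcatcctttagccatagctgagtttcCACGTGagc
Ctc1 chr11:69042902-69043151: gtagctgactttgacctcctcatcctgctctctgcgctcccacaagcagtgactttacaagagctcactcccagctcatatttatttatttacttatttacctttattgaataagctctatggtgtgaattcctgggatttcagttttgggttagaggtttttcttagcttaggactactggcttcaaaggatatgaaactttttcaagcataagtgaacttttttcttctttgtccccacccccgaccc

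In order along the chromosome the 6 members had authors' folds of 2.07, 2.37, 2.32, 2.04, 2.08 and 2.17. Of these folds 5 lay below 2.36, the median of all autosomal MEF intervals. The nearest mESC interval was 14332 bp away and the nearest other MEF interval 29641 bp away. The only motif match among the printed members was a CACGTG E-box, the palindrome that MYC-type factors bind, in the fifth member.

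The highest median fold was found in an intergenic cluster 142 kb from Wdr75, a gene for a ribosome biogenesis factor. Its 3 members spanned 1648 bp.
Wdr75 chr1:45651928-45651977: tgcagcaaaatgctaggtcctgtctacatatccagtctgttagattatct
Wdr75 chr1:45652028-45652077: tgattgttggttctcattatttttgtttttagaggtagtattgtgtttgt
Wdr75 chr1:45653277-45653575: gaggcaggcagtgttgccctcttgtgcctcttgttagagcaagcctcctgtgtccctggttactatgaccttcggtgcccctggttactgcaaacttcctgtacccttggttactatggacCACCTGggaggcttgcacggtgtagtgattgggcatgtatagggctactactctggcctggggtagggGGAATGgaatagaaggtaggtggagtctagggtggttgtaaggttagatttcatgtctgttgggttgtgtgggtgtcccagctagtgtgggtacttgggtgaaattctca

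These members had folds of 6.53, 10.9 and 2.13. The 2 members with high folds were 50 bp long, lay 50 bp apart and were 100% and 76.0% soft-masked, which is how the assembly marks repeats and low-complexity sequence. The third, 299 bp long and 8.36% soft-masked, held a GGAATG TEAD site and a CACCTG E-box of the kind SNAI and ZEB repressors bind, and had a fold close to the list's lower limit.

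The shortest clusters spanned 300 bp, less than the length of the longest cloned inserts. One of them covered the annotated end of Tcf23, a gene for a basic helix-loop-helix factor, with its first member over the end of the 3 prime UTR and the others past it.
Tcf23 chr5:30977002-30977051: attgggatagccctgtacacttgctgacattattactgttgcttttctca
Tcf23 chr5:30977102-30977201: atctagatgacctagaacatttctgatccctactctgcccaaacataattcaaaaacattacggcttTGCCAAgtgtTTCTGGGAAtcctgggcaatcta
Tcf23 chr5:30977252-30977301: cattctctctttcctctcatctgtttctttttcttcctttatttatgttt

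The 3 members had folds of 2.04, 2.15 and 2.50 and were separated by gaps of 50 bp. A single insert of 300 to 400 bp can cover all 3. The 100 bp member between the other two held a TTGGCA NFI core site on the reverse strand and a TTCTGGGAA match to the palindrome TTCNNNGAA that STAT factors and BCL6 can bind.

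Most clusters were as small as the rule allowed. There were 546 clusters of 3 members, 58 of 4, 11 of 5 and 1 of 6, and a further 4347 runs stopped at exactly 2. The members made up 4.17% of the autosomal MEF-only intervals. Cluster span had a median of 3850 bp (quartiles 1938 and 5595 bp) between a lowest value of 300 bp and a highest of 14204 bp. Members covered a median of 500 bp of each cluster, or 14.2% of its span, so a cluster was mostly sequence that was in neither list. All 616 clusters together spanned 2470 kb, of which members covered 328 kb.

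Many neighbouring members were close together. Of 1315 gaps, 311 (23.7%) were at most 100 bp, 200 of them exactly 50 bp, and 481 (36.6%) were at most 400 bp, the upper insert length. At the other end 153 gaps (11.6%) exceeded 4 kb. The largest gap inside a cluster was 5000 bp and the smallest gap from a cluster to a next MEF-only interval that the limit kept out was 5050 bp. When intervals within 400 bp of each other were counted as 1 region, 272 of the 616 clusters (44.2%) still had 3 or more regions, 260 had 2 and 84 had a single region. A merge distance of 100 bp left 376 clusters with 3 or more regions, 205 with 2 and 35 with 1. Clusters with 3 separate regions were thus a minority at the longer merge distance and a majority at the shorter one.

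**Figure D1:**
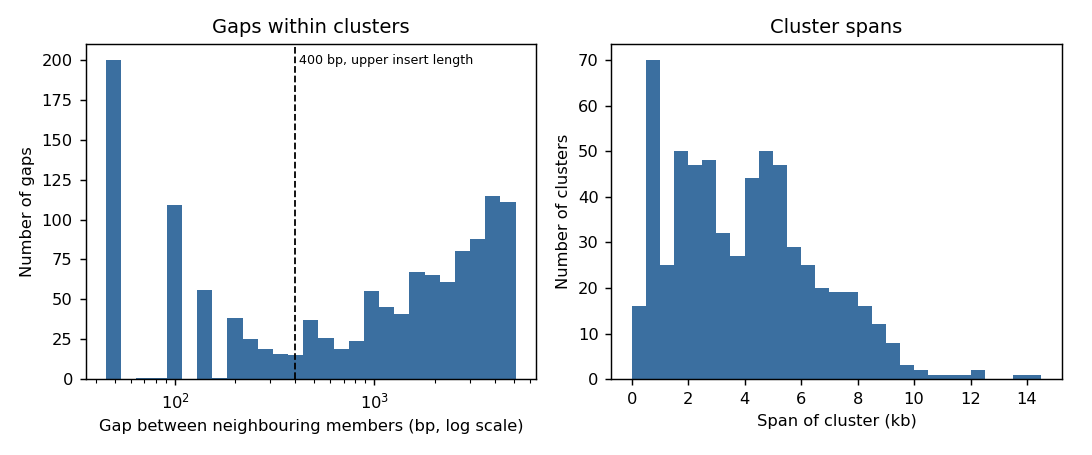
Left, the number of gaps between neighbouring members by gap length in bp on a log scale, with the dashed line at the upper insert length of 400 bp. Right, the number of clusters by span in kb. The 311 gaps of at most 100 bp are shorter than any insert, and 88 of the 616 clusters spanned at most 1 kb.

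The clusters did not lie in stretches free of mESC silencers. An mESC interval lay within 1 kb of an end of 100 clusters, within 5 kb of 268 (43.5%), within 10 kb of 399 and within 50 kb of 612. The median distance from a cluster to the nearest mESC interval was 5.94 kb. Of the 10 kb flanks on both sides of the clusters, 41.0% held the midpoint of at least 1 mESC interval. For MEF intervals the share was 28.2%. Over the ungapped autosomes there were 47.1 mESC and 36.6 MEF intervals per Mb, densities that cannot be set beside these shares. The rule bears on the MEF share, because a close MEF-only interval would have joined the cluster unless an mESC interval lay between. What sets the mESC share was not tested. Of 1232 cluster ends, 795 had the next MEF interval beyond 5 kb, with an mESC interval before it or overlapping it. A further 286 had it beyond 5 kb with neither, and 151 within 5 kb but past or in overlap with an mESC interval. The most isolated cluster, chr11:114436636-114441157 in an intron of the non-coding gene 4932435O22Rik and 227 kb from the ribosomal protein gene Rpl38, was 86.6 kb from any mESC interval. Its 3 members had a median fold of 2.11 and a highest fold of 4.95.

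Runs without regard to cell type give the setting. Over all autosomal MEF intervals 3513 runs of 3 or more with gaps of at most 5 kb held 11621 intervals (13.2%). Of these runs, 550 held MEF-only intervals alone, 407 held shared intervals alone and the rest were mixed. MEF-only intervals made up 52.4% of the intervals in such runs, against 52.8% of all autosomal MEF intervals. The mirrored rule gave 1747 clusters of mESC-only silencers with 5686 members, or 7.94% of 71588 mESC-only intervals, against 4.17% for MEF-only clusters. The mESC list is longer and the MEF list that breaks its runs is shorter, and the part of list length in these shares was not tested. The clusters of MEF-only silencers were the smaller and tighter ones: 88.6% had exactly 3 members, against 79.9% in mESCs, and the median span was 3850 bp, against 4450 bp. The largest MEF-only cluster had 6 members, against 9 in mESCs, and 36.6% of gaps were at most 400 bp, against 29.9%. Among the members 5.39% had a fold above 4, against 8.28% of mESC-only cluster members. The lists themselves differed in the same direction, with 4.86% of all autosomal MEF-only intervals above 4, against 7.22% of all autosomal mESC-only intervals.

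After the 1 cluster of 6 members came 11 of 5 members, of which the 9 of shortest span were taken. Of these 10 clusters 9 are described, with spans from 1296 to 11037 bp. Among them 5 were wholly intronic. They lay in Zfp407, a zinc finger gene, in Vcl, which encodes the focal adhesion protein vinculin, in Cdyl, which encodes a chromodomain corepressor, in Pik3c2a, which encodes a class II phosphoinositide kinase, and in Tmtc2, which encodes a protein of the endoplasmic reticulum. Those near Iqcj, Zfp512 and Rhcg were intergenic, 41.5, 13.9 and 21.8 kb from the gene. The Vcl cluster, chr14:20963250-20967433, had the highest median fold of the 9, at 3.33 with a range of 2.20 to 3.57. Vinculin links integrin adhesions to actin and is abundant in fibroblasts. The Cdyl cluster, chr13:35687438-35692347, had folds of 3.09, 3.03, 2.26, 2.10 and 2.40, and all 5 of its members were at least 96.0% soft-masked.

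**Figure D2:**
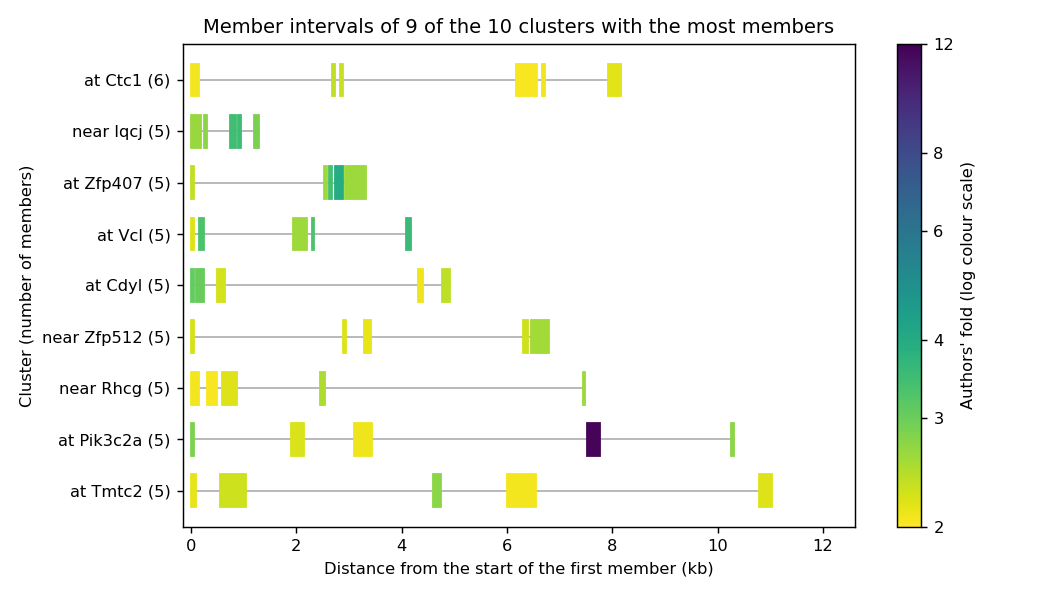
Positions of the members of 9 of the 10 clusters with the most members, ties broken by shorter span, by distance in kb from the start of the first, with boxes drawn to length and coloured by the authors' fold on a log colour scale. The Pik3c2a cluster holds 1 member at 11.8 among 4 below 3, while the 6 members at Ctc1 lie between 2.04 and 2.37.

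The Pik3c2a cluster, chr7:116385568-116395873, shows how unequal the members of a cluster could be. Its 5 members had folds of 2.85, 2.22, 2.09, 11.8 and 2.72. The fourth, which tied for the second highest fold of all members, is printed because it carries the cluster's high value, and it was chosen after its values were seen. It was 250 bp of AT-rich intron with 30.0% GC.
Pik3c2a chr7:116393086-116393335: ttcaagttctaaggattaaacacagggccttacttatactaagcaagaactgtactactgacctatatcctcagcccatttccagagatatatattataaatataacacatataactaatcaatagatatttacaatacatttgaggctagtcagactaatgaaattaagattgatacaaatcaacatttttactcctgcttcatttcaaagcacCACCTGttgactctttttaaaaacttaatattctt

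The cluster near Iqcj was compact, with 5 members in 1296 bp that became 2 regions after merging within 400 bp, and folds of 2.63, 2.72, 3.47, 3.52 and 2.86.

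After the cluster near Wdr75, the next highest median folds were found near Izumo3, a gene for a sperm-egg fusion family member, in Robo1, in Rnf180, a gene for a membrane-bound ubiquitin ligase, and in the non-coding gene 4930590L20Rik near Kcnt2, a potassium channel gene. The 3 members near Izumo3 had folds of 3.71, 6.22 and 4.84 within 600 bp. The Rnf180 cluster had a lowest fold of 2.25, a median of 4.54 and a highest of 5.99, and the cluster near Kcnt2 had 2.85, 7.00 and 4.46. No cluster had every member above 4.

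The fold values gave a second view of the same unevenness. The median authors' fold was 2.32 for cluster members, against 2.28 for other MEF-only intervals, 2.46 for MEF intervals shared with mESCs and 2.36 for all autosomal MEF intervals. A fold above 4 was found for 104 members (5.39%), against 4.83% of other MEF-only and 6.68% of shared intervals, and 5.72% over all autosomal MEF intervals. The members' share was thus close to the background. The highest member fold was 16.3, against 46.3 among other MEF-only and 84.4 among shared intervals. Within a cluster the highest fold was a median of 1.31 times the lowest and at most 7.95 times it. At least 1 member above 4 was found in 94 clusters, and 359 clusters had no member above 3.

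Median folds were higher in shorter clusters. Members of the 88 clusters that spanned up to 1 kb had a median fold of 2.49 (268 members). Members of the 227 clusters of 1 to 4 kb had 2.35 (694 members), and those of the 301 longer clusters 2.28 (969 members). Inner members had a median of 2.35 (699 members) and members at the ends of clusters 2.31 (1232 members). Member length differed too, with a median of 100 bp in clusters of up to 4 kb and 150 bp in longer ones. Inner members had a median length of 100 bp and those at the ends 150 bp. The part of length in these folds was not tested. Of the 104 members above 4, 23 lay in clusters of up to 1 kb. Members closer together than an insert is long can be covered by the same inserts, so their folds are not independent of each other.

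The single highest fold belonged to a 50 bp member 339 kb from Asrgl1, a gene for an asparaginase-like enzyme. The members on its sides, 500 and 100 bp long, had folds of 2.62 and 2.06 and were 90.6% and 100% soft-masked, while the 50 bp member held no soft-masked base. Its sequence is shown for its value, and carries a RUNX match on the reverse strand and an NFI core site on the reverse strand.
Asrgl1 chr19:9475502-9475551: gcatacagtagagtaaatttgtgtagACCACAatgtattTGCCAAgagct

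The next highest member folds were 11.8 in Pik3c2a and, with the same value, near Cfap20, a gene for a cilium protein, then 10.9 near Wdr75, 8.85 near Zfp637 and 7.71 in a cluster 724 kb from Arrdc3. Rorb, which encodes a nuclear receptor, Kcnt2, Cadps2 and the glutamate receptor gene Gria4 were the genes nearest to the members that came next by fold, at 7.26, 7.00, 6.61 and 6.58. In 8 of these 10 clusters only that member exceeded 4, the exceptions being those near Wdr75 and Kcnt2. All 10 members lay between 50 and 250 bp in length.

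Many members shared exact fold values. The most frequent fold of the MEF list, 2.72, was given for 3051 intervals (3.41%) and for 91 cluster members (4.71%), against 3.13% of other MEF-only intervals. The 1931 members had 605 distinct folds. Over the MEF list 99.9% of folds equalled the most frequent one times a ratio of whole numbers with a denominator of at most 200, within a relative tolerance of 2e-08. The steps between possible folds are therefore coarse, and a tie between members does not show equal activity.

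Cluster members had a mean length of 170 bp, against 192 bp for other MEF-only and 252 bp for shared intervals. By the median, 149 bp against 150 and 250 bp, they were hardly shorter than other MEF-only intervals. Of the members 537 (27.8%) were 50 bp long, against 22.0% and 9.75%. The part of the selection rule in these lengths was not tested. GC content averaged 40.2%, against 40.4% in other MEF-only and 39.8% in shared intervals. Soft-masked bases made up 34.6% on average, against 34.8% and 42.5%. By soft-masking the members thus resembled other MEF-only intervals and held less than the shared ones. A member without any soft-masked base was found in 26.2% of cases, against 23.8% and 12.7%, and a fully soft-masked one in 10.4%, against 8.94% and 9.56%. Lengths differed between these classes, and their part in these shares was not tested.

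Whole clusters ranged from 29.1% to 53.3% GC with a median of 40.4%. The highest were found near Zfp53 (53.3%), near Mindy3 (49.8%) and in Bmp6 (49.7%), Meiob (49.1%) and Ranbp17 (48.9%). The lowest were at Carnmt1 (29.1%), 481 kb from Nbea (29.5%), near Hecw2 (31.0%), in Spidr (31.0%) and in Eps8l2 (31.2%). Members of 1 cluster differed in GC by a median of 11.1 points between the highest and the lowest. Over all members the SD of GC was 6.92 points, and GC counted over so few bases varies widely. The range was not compared with that of members of different clusters, so it does not tell whether clusters were uniform in composition. There were 8 fully soft-masked clusters, 25 at 90% or more and 21 with no soft-masked base. The fully soft-masked ones included the cluster of 350 bp lying 151 kb from the cell cycle kinase gene Cdk6, with folds of 4.08, 5.79 and 3.70.

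Members of a cluster were rarely copies of each other. A shared run of 20 bases was found in 6 of 2111 pairs of members of the same cluster (0.284%), against 12 of 5868 pairs from neighbouring clusters (0.204%). The 6 pairs lay in clusters near Ppp1r36 and Ninj1 and in Nrf1, Rbbp6, Shroom3 and Kcnq5. Shared sequence of this length was thus found in very few clusters, at a share close to that between neighbouring clusters. Whether it came from local duplication was not tested.

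By position, introns held 964 members (49.9%, 95% exact binomial interval 47.7 to 52.2), against 45.3% of other MEF-only and 45.5% of shared intervals. Intergenic sequence held 850 members (44.0%, 41.8 to 46.3), against 48.8% and 49.0%. Promoters, counted as 1 kb on either side of any annotated transcription start, held 64 (3.31%, 2.56 to 4.21), against 3.57% and 3.25%. Coding exons held 15 members (0.777%) and 3 prime UTRs 28 (1.45%), against 0.579% and 1.19% of other MEF-only intervals. The intervals cover counting error only, and neighbours in a cluster share a locus, so they are too narrow. Members of mESC-only clusters had much the same distribution, with 49.2% in introns, 43.8% intergenic and 4.10% in promoters. Of the 293 members of clusters with 4 or more members, 44.4% were intronic and 49.5% intergenic, which reverses the order of these classes.

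Of the 616 clusters, 315 (51.1%) overlapped a protein-coding gene, 57 only a non-coding gene and 244 no gene. All members were intronic in 279 clusters and all intergenic in 244, and 44 clusters had a promoter member. Clusters outside protein-coding genes lay a median of 61.4 kb from one, and 123 lay over 100 kb away. These far clusters were in gene-poor sequence where the nearest gene name is only an address.

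Along the chromosomes the clusters numbered 2.57 per 10 Mb. The share of MEF-only intervals that fell in clusters was highest on chromosome 9 (5.69%, 4.81 to 6.67, with 46 clusters) and chromosome 10 (5.58%, 49 clusters) and lowest on chromosome 17 (2.06%, 1.43 to 2.87, 11 clusters) and chromosome 4 (2.84%, 25 clusters). Chromosome 2 had the most clusters, 56. The order of these shares was read after the fact, over 19 autosomes. Members enter only in groups of 3 or more, so the binomial intervals, which take them as independent, are too narrow.

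**Figure D3:**
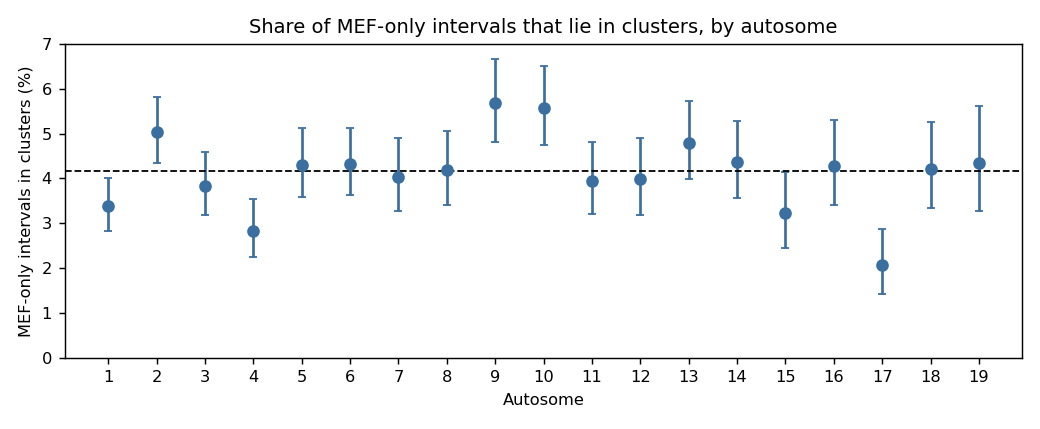
Percent of MEF-only intervals that lie in clusters on each autosome, with 95% exact binomial intervals as bars and the share over all autosomes, 4.17%, as a dashed line. Chromosomes 9 and 10 lie highest, at 5.69% and 5.58%, and chromosome 17 lowest, at 2.06%.

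A cluster lay in the territory, meaning the gene body and 10 kb on either side, of 394 of 20807 autosomal protein-coding genes (1.89%). Of these, 376 had 1 cluster, 17 had 2 and 1 had 3. Mthfs, which encodes an enzyme of folate metabolism, had 3 clusters of 3 intronic members each, at chr9:89267364-89271509, chr9:89304173-89304772 and chr9:89367103-89368700. Their median folds were 2.20, 2.20 and 2.22, and the highest member fold was 2.50. The Mthfs territory of 187 kb held 14 MEF and 7 mESC intervals in all, so 9 of its 14 MEF intervals were cluster members.

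Genes with 2 clusters included Cd109, Pik3c2a, Cpeb3, Jarid2, Dnah14, Spidr, D430041D05Rik, Fry and Scaper, and every one of their clusters lay inside the gene. Cd109 encodes a membrane-anchored protein that binds TGF-beta. Its first cluster had folds of 3.54, 2.35 and 3.63 and its second 3.58, 2.88 and 2.72. The second Pik3c2a cluster, chr7:116366052-116370735, had folds of 2.12, 2.64 and 2.88. Cpeb3, which encodes an RNA-binding regulator of translation, had clusters with folds of 2.11, 2.16 and 2.87 and of 2.07, 2.23 and 2.04. In Spidr, which encodes a DNA repair scaffold, the folds were 2.16, 2.06 and 2.09 in one cluster and 2.87, 3.63 and 2.72 in the other. Dnah14 encodes an axonemal dynein heavy chain, and its second cluster was 94.1% soft-masked with folds of 2.62, 2.10 and 2.52. Median folds of the paired clusters were close in some of these genes, as in Pik3c2a (2.64 and 2.72) and Fry (2.72 and 2.81), and further apart in others, as in Spidr (2.09 and 2.87).

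Promoters of protein-coding genes held 22 members in 17 clusters, at 17 genes. The 64 promoter members given earlier were counted at annotated starts of any kind. None of the 22 had a fold above 4, and the highest was 2.97. So few members cannot tell none from the background of 5.72%. With starts of any kind counted, the member of 7.71 in the cluster 724 kb from Arrdc3 was also a promoter member. The 10 genes with the highest promoter members were Bnip2 and Olfr357 (2.97 each), Med27 and Olfr353 (2.96 each), Cfap20 (2.85), Eid1 and Npvf (2.72 each), Mgam (2.63), Ak5 (2.33) and Gm26566 (2.28). Med27 encodes a Mediator subunit, Eid1 an inhibitor of histone acetyltransferases and of differentiation, Npvf a neuropeptide precursor and Mgam an intestinal glucosidase. Bnip2 encodes a signalling scaffold protein and Ak5 a neuronal adenylate kinase. Olfr353 and Olfr357 are odorant receptor genes, which are silent outside sensory neurons.

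Of these 17 genes only Olfr357 had 3 promoter members, and they made up a whole cluster, with folds of 2.60, 2.97 and 2.18. With starts of any kind counted, clusters at Lhfpl3, Limch1 and Smyd1 also had all 3 members in promoters. Promoter members of Npvf lay 38 and 137 bp from an annotated start at interval midpoint, with folds of 2.72 and 2.33, and that of Mgam lay 13 bp from one, with a fold of 2.63. The member at E2f4, a cell cycle repressor gene, was 800 bp long with a fold of 2.13.

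Of the 287 genes on the chosen lists 18 had a cluster in the territory, against 394 of 20807 (1.89%) over all genes. Of the 18, 10 came from the list of long loci, where territories are longer. Among 35 genes of fibroblast and mesenchymal identity only Zeb2 had one. None of 34 pluripotency genes, 25 epithelial junction genes and 19 cell cycle brake and p53 family genes had a cluster in its territory, although with 50 kb on either side 2 pluripotency genes did. These lists are too short to tell none from the 1.89% over all genes. Of 22 AP-1 and TEAD-YAP genes only Yap1 had one, and of 30 TGF-beta and BMP genes only Bmp6. A single gene made up 2.86%, 4.55% and 3.33% of these 3 lists, against 1.89% over all genes.

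Zeb2 encodes a zinc finger repressor that drives epithelial to mesenchymal transition. Its cluster, chr2:45084202-45087101, lay in intronic sequence 31.7 kb from the annotated start, with folds of 2.42, 2.14 and 2.84 and no soft-masked base. Yap1 encodes the Hippo pathway coactivator that works through TEAD factors. Its intronic cluster, chr9:7984547-7988871, had folds of 2.16, 2.14 and 2.54. Bmp6 encodes a bone morphogenetic protein ligand. Its cluster, chr13:38399802-38411601, had 4 intronic members spread over 11800 bp with folds of 3.31, 2.51, 2.37 and 2.04. The 3 genes had no mESC-only cluster in their territories.

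Of 36 chromatin repressor genes, Suz12, Jarid2 and Ncor1 had clusters (8.33%, against 1.89% of all genes). Suz12 and Jarid2 encode proteins of Polycomb repressive complex 2, and Ncor1 a nuclear receptor corepressor. The Suz12 cluster, chr11:79999460-80006367, had 4 intronic members with folds of 3.52, 2.38, 2.09 and 2.30 and was 70.9% soft-masked. The Ncor1 cluster, chr11:62441002-62445301, had folds of 2.02, 3.16 and 3.24, and an mESC interval lay only 202 bp from its end. Jarid2 had a cluster without soft-masked bases at chr13:44833666-44838500, with folds of 2.20, 2.06 and 2.29 and its last member within 1 kb of an annotated start of a transcript. Its second cluster, chr13:44858782-44862019, had folds of 3.40, 2.51 and 2.63. The list's 4 clusters lay in 3.60 Mb of territory, or 11.1 per 10 Mb, against 2.90 per 10 Mb over all protein-coding territories. The mirrored mESC-only clusters were also denser there, at 19.5 per 10 Mb against 8.67. With 4 clusters in 3 genes, each gene decides a large part of these values.

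Of 47 genes of long loci, most of them for neuronal adhesion and synapse proteins, 10 had a cluster (21.3%). Their territories had a median of 974 kb, against 37.6 kb for all genes, and per 10 Mb they held 2.23 clusters, against 2.90 over all genes. The higher share of genes thus came with longer territories and not with denser clusters. The genes were Cntnap2, Cntnap4 and Cntn4 of the contactin family and its partners, the catenin gene Ctnna3, the cadherin gene Cdh8, Ntm, the scaffold gene Magi1, Macrod2 with 2 clusters, Fhit and Immp2l. The last 3 of these are on the list for their length, and encode a macrodomain hydrolase, a diadenosine triphosphate hydrolase and a mitochondrial inner membrane peptidase subunit. All of these clusters were intronic, from 124 kb (Magi1) to 1837 kb (Cntnap2) from the annotated start. Their median folds ranged from 2.04 in Ctnna3 to 2.72 in the second Macrod2 cluster. Of the 33 members, 2 exceeded 4 (6.06%, against 5.72% of all autosomal MEF intervals), namely 5.45 in Ntm and 4.61 in Macrod2.

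The axon guidance list had 2 of 36 genes with a cluster (5.56%, against 1.89% of all genes), Robo1 with 2 clusters and Sema6d with 1. The territories of this list had a median of 222 kb, against 37.6 kb for all genes. They held 2.59 clusters per 10 Mb, against 2.90 over all genes, so clusters were not denser there. Robo1 encodes the receptor for SLIT ligands. Both of its clusters had median folds above those of the other list genes. The first, chr16:72733252-72735301, had folds of 2.72, 4.84 and 5.45, and the second, chr16:72909646-72913729, had 4.36, 5.10 and 2.01. Together 4 of 6 members exceeded 4, against 5.72% of all autosomal MEF intervals. The sequences of both clusters are shown because no other gene named here had 2 clusters with medians above 4, and they were chosen after their values were seen.
Robo1 chr16:72733252-72733351: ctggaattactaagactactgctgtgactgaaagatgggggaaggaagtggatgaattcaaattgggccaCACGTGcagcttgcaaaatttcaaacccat
Robo1 chr16:72733402-72733451: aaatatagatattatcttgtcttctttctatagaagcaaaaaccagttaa
Robo1 chr16:72735252-72735301: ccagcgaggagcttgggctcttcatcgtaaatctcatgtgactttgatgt
Robo1 chr16:72909646-72909745: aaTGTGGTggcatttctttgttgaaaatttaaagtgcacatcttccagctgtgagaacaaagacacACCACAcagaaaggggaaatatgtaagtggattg
Robo1 chr16:72909846-72909945: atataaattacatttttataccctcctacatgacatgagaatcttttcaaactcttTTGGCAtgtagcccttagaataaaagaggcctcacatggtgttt
Robo1 chr16:72913530-72913729: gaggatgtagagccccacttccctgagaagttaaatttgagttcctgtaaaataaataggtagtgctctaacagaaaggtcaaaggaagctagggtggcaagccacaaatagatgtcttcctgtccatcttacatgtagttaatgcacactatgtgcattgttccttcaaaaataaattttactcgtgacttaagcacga

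A CACGTG E-box was found in the first member of the upstream cluster, a pair of RUNX matches in the first member of the downstream cluster and an NFI core site in its second. The 2 members of the upstream cluster with folds above 4 held none of the 11 motifs. The Sema6d cluster, chr2:124305535-124307478, had folds of 2.12, 2.63 and 2.35.

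**Figure D4:**
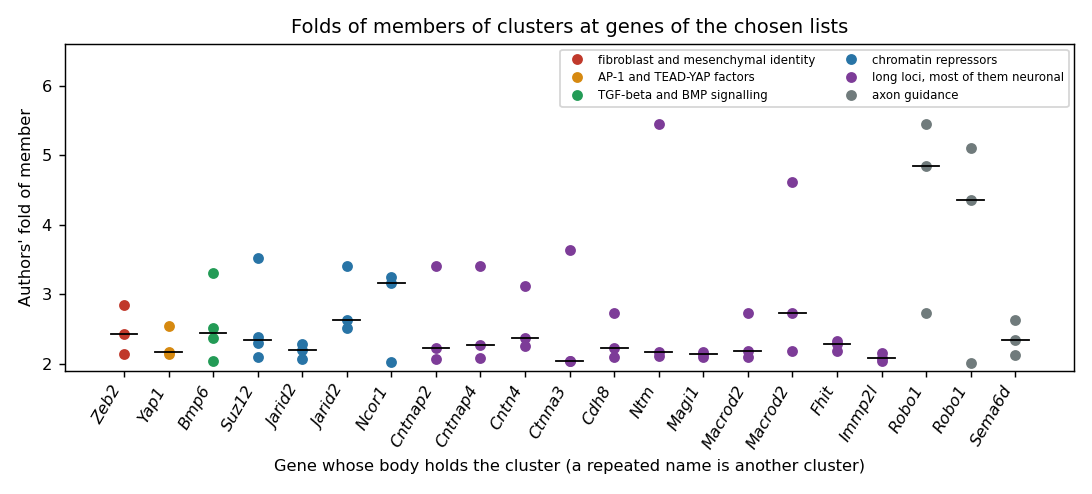
Authors' fold of each member of the 21 clusters at genes of the chosen lists, coloured by list, with a black line at the cluster's median and 1 column per cluster. The 2 Robo1 clusters have medians of 4.84 and 4.36, and the medians of all others lie between 2.04 and 3.16.

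Motif matches were counted in 300 bp windows centred on each interval, on both strands. Windows are longer than most members, so a match can lie beside the listed interval, and windows of members in tight clusters overlap each other. The AP-1 site TGANTCA was found in 9.22% of member windows (95% exact binomial interval 7.96 to 10.6), against 9.92% of other MEF-only, 8.57% of shared and 8.07% of mESC-only windows. The TEAD site GGAATG was found in 13.5% (12.0 to 15.1), against 16.3%, 16.2% and 16.5%. Intervals over all member windows take them as independent and are too narrow. With 1 window per cluster, that of the member with the highest fold, the TEAD share was 14.6% (11.9 to 17.7). That interval holds the shares of the other 3 classes. In percentage points the gap to each of the other 3 classes was wider at the TEAD site than at any other motif at which member windows lay below all 3. In whole intervals in place of windows the TEAD share was 7.41%, against 10.5%, 13.4% and 11.0%, and the AP-1 share 5.28%, against 6.45%, 7.18% and 5.34%, so that AP-1 in members no longer lay above the shared and mESC-only classes.

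The RUNX site TGTGGT was found in 22.6%, against 22.8% of other MEF-only, 24.6% of shared and 24.3% of mESC-only windows. When only windows under 50% soft-masked were counted, the RUNX share was 21.48%, against 21.12%, 21.23% and 21.03%. Member windows then no longer lay below the other 3 classes at this site. The part of soft-masked sequence in the RUNX shares of all windows was not tested further. The E-box CAGGTG of SNAI and ZEB repressors was found in 14.2%, against 15.4%, 14.9% and 15.7%. The MYC-type E-box CACGTG was found in 2.85%, against 3.08%, 2.57% and 2.48%. The palindrome TTCNNNGAA was found in 10.2%, against 10.1%, 9.10% and 9.07%, and the NFI core site TTGGCA in 14.2%, against 14.1%, 12.2% and 13.0%. The SOX site ACAATGG was found in 4.30%, against 5.24%, 4.63% and 4.90%, and the GATA site AGATAAG in 3.99%, against 4.14%, 4.25% and 4.44%. The GC-rich KLF and SP site GGGCGGG was rare, in 14 windows (0.725%, 0.397 to 1.21), against 1.21%, 1.53% and 1.60%. The ETS site CCGGAAG was found in 0.725%, against 0.646%, 0.528% and 0.578%. At least 1 CpG was present in 83.7% of member windows, against 83.0%, 81.3% and 82.0%. In whole intervals the order turned, with 58.2% of members, against 60.8%, 69.3% and 61.0%. A match describes letters, not a bound factor.

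**Figure D5:**
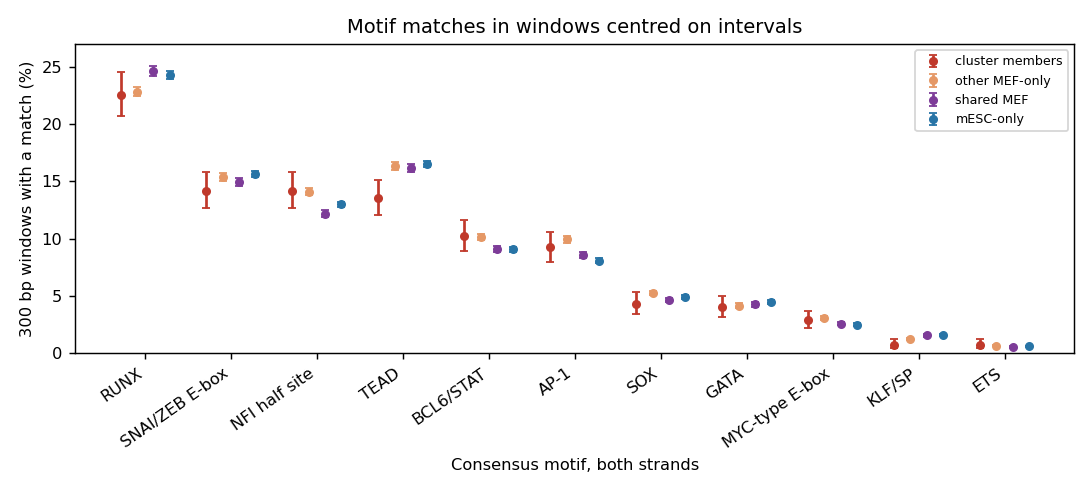
Percent of 300 bp windows with at least 1 match to each consensus motif, for cluster members, other MEF-only, shared MEF and mESC-only intervals, with 95% exact binomial intervals as bars. In percentage points the widest gap between cluster members and other MEF-only intervals is at the TEAD site, 13.5% against 16.3%.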

How the data were processed

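Both tables analysed were interval lists, 1 per cell type, with chromosome, start, end and a fold for each interval. Each interval carries 1 linear fold, deposited by the authors under that heading. How the fold was formed from reporter RNA and input libraries, how intervals were called and how replicates were combined is not given in the sources used here. The submitters' processing notes list Bowtie2 and SAMtools without a version, and name hg38, whereas mm10 stands in the design text of the series. Chromosome names were those of mouse and 0 intervals ended beyond an mm10 chromosome, so mm10 was used. Intervals were read as BED and are printed counting from 1, with an uncertainty of 1 bp at the start.

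Overlaps of at least 1 bp made an interval shared. Runs were found with Python 3.11.15, pandas 2.3.3 and NumPy 2.4.6, and the run finder was tested on simulated intervals. Annotation was assigned at the interval midpoint from the GENCODE M21 basic set, with promoters taking precedence, then exons by kind, then introns. Sequence came from GRCm38.p6 (RefSeq) through pysam 0.24.0, and exact binomial intervals from SciPy 1.17.1. The rule, the 9 gene lists (287 genes) and the 12 motifs were chosen with earlier results of these data known. Named clusters were the 10 with the most members, ties to the shorter span (1 of these is not reported here), the 5 with the highest median fold, the 5 of shortest span and the 5 each of highest and lowest GC. Named genes were up to 10 with 2 or more clusters, list members with a cluster, and up to 10 with the highest promoter members. The members with the highest folds, the most isolated cluster and other genes were named after their values were seen.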

Additional observations from a re-analysis of the deposited data

How the results depend on the processing

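Of 77 recomputed values, 34 stayed within the spread allowed and 43 moved. The number of clusters, their members and the share of MEF-only intervals they held were 272, 836 and 1.80% with gaps of at most 2 kb, and 1185, 3827 and 8.26% with 10 kb. They were 70, 293 and 0.632% with at least 4 intervals, and 4963, 10625 and 22.9% with at least 2. With no mESC interval within 5 kb of either end they were 349, 1093 and 2.36%. Merging MEF intervals within 100 bp gave 367, 1145 and 2.61%, and within 400 bp, an alternative chosen after seeing the data, 259, 804 and 1.89%. With both lists at or above their median fold they were 174, 542 and 2.07%, and with only the MEF list so restricted 81, 252 and 1.29%; fewer intervals enter these runs. With mESC intervals allowed between members they were 696, 2186 and 4.72%. Where only an overlap of at least 50% of the MEF interval made it shared, they were 826, 2596 and 5.24%. Under both settings the counts, against 616 clusters and 1931 members by the main rule, were among the values that stayed, so the spread allowed was wide. The number of mESC-only clusters was 659 with gaps of at most 2 kb and 485 with both lists at or above their median fold.

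With promoters of 5 kb on either side, 17.0% of members were in promoters, 42.6% in introns and 38.4% intergenic. In clusters of at least 4 intervals 44.4% of members were in introns and 49.5% intergenic, the reverse order, and 1.37% in coding exons, and 30.7% of bases were soft-masked, against 36.9% with gaps of at most 2 kb. In whole intervals in place of windows, matches were found for AP-1 in 5.28%, TEAD in 7.41%, RUNX in 12.3% and CpG in 58.2% of members. Against shared intervals this turned the order for AP-1 (7.18%) and CpG (69.3%), and members are shorter. With 50 kb on either side of the gene 23 list genes had a cluster, and with the gene body alone 18, as with 10 kb. No paired analysis was possible because each cell type has 1 list.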
